A study of Homo sapiens with 6 samples.

Results

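The genes described are 10 direct transcriptional targets of the tumor suppressor p53: CDKN1A, GADD45A, MDM2, FAS, TP53I3, ZMAT3, XPC, SESN1, TIGAR and FDXR. They were chosen by name, as widely known p53 targets, and were found by their symbols among the 34036 genes of the count table. All 10 passed the filter on low counts. RNA was sequenced from HepG2 cells, a human line derived from a hepatocellular carcinoma. The labels call the molecule polyadenylated RNA, but their protocol text leaves poly(A) selection and rRNA depletion as alternatives, so the selection step is not known. Cells received either a pool of siRNAs against DGUOK (siDGk), the mitochondrial deoxyguanosine kinase, or a non-targeting siRNA (siCON), both with Lipofectamine RNAiMAX. Cells were harvested 48 h later, with 3 libraries per group. Titles and library names separate the groups, although the treatment label names the control siRNA for every library. The labels do not say that the libraries came from separate cultures, so p-values measure only the spread between these libraries, which may be technical.

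p53 is a transcription factor that is kept scarce in unstressed cells and accumulates after DNA damage, nucleotide shortage or other stress. It binds a paired DNA element near its targets and raises their transcription, which can halt the cell cycle, aid repair, change metabolism or start apoptosis.

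Library totals were 19065684, 18915508 and 10527216 counts for siCON replicates 1, 2 and 3. The siDGk libraries held 18613138, 15978314 and 21334876 counts. Levels are given as CPM, counts divided by TMM-scaled library sizes. A gene was called when edgeR's adjusted p was under 0.05 and the absolute log2 fold change was above 0.5. The targeted gene served as a check of the labels. For DGUOK, siCON replicates 1 to 3 held 54.4, 53.1 and 48.2 CPM and siDGk replicates 1 to 3 held 9.08, 10.5 and 6.72 CPM. Each siDGk library was far below each siCON library, and the log2 fold change of DGUOK was −2.57 (SE 0.190, edgeR adjusted p = 1.64e-08).

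The cell label was checked against 9 hepatocyte markers, all of which passed the count filter. ALB, the gene of serum albumin, stood between 14273 and 18791 CPM in siCON libraries and between 4280 and 6328 CPM in siDGk libraries. Of the 9 markers, 8 were called lower in siDGk cells, compared with 6.68% of all genes tested, and SERPINA1, at a log2 fold change of 0.019, was not. The called values ran from −1.90 for FGB to −0.51 for HNF4A, with AFP, APOA1, APOB, TTR and TF between them. Summed over the 9 markers, siCON replicates 1 to 3 held 52875, 47121 and 46127 CPM and siDGk replicates 1 to 3 held 27418, 23922 and 22503 CPM. In these bulk libraries of the HepG2 line, fewer cells expressing these genes and less of their RNA per cell cannot be told apart. HNF4A, a hepatocyte transcription factor gene, was under the fold threshold in the fits without siCON replicate 1 (−0.46) and without siDGk replicate 3 (−0.47).

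Among 9 markers of immune, endothelial and stromal cells, THY1 had no count in any library. Together they summed to 16.0, 21.7 and 12.8 CPM in siCON replicates 1 to 3 and to 33.9, 86.9 and 28.5 CPM in siDGk replicates 1 to 3. The endothelial gene VWF reached 31.4 CPM in siDGk replicate 2 and at most 1.40 CPM in the other libraries. COL1A1, a fibrillar collagen gene, was the most abundant of these markers in siDGk replicates 1 and 3, as PDGFRB was in each siCON library, and was called higher (log2 fold change 4.04). PDGFRB was called lower, at a log2 fold change of −1.02, but its edgeR adjusted p rose to between 0.0551 and 0.125 without any 1 library other than siDGk replicate 2. The part of these marker shifts in the results on p53 targets was not tested.

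Of the 10 p53 targets, 1 was called higher in siDGk cells, where 7.42% of all 14476 genes tested were called higher. None was called lower by edgeR's test, where 6.68% of all genes were. At an unadjusted p under 0.05, edgeR had 3 of the 10 higher and 2 lower, compared with 15.8% and 14.7% of all genes tested. DESeq2 also called 0 of the 10 lower. FDXR was called lower without siCON replicate 1 or siDGk replicate 3, and TP53I3 higher without siCON replicate 3 or siDGk replicate 1, with the values given for those genes. The adjusted p alone was passed by 4 of the 10, compared with 19.7% of all genes tested. For 4 of the 10, every siDGk library lay above every siCON library, a pattern that 18.7% of all genes showed. For another 4, every siDGk library lay below every siCON library, as for 17.3% of all genes. The median log2 fold change of the 10 genes was −0.034, beside 0.017 for all genes tested, and 5 of the 10 values were positive and 5 negative.

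Matches to the DNA element that p53 binds are shown because binding near a gene is what makes it a direct target. The p53 consensus element was taken as 2 adjacent half-sites of 10 bases each, every half-site reading 3 purines, a C, 2 bases that are A or T, a G and 3 pyrimidines. The half-site is its own reverse complement, so that both strands were covered. Matches with at most 2 mismatches and with the C and G of both half-sites intact were sought within 5000 bases of the start of the MANE Select transcript (Gencode 44, GRCh38). Of the 10 genes, 5 had such a match in this window, compared with 7.68% of 19061 start sites. At most 1 mismatch was found for 2 of the 10, compared with 1.07% of start sites. Because the genes were chosen as known p53 targets, shares above those of all start sites are no independent result. Half-sites parted by a spacer and matches farther from the start were not sought. The match with the fewest mismatches of each gene is printed 5′ to 3′ on the strand of the gene, with the C and G of each half-site in capitals.
CDKN1A: gaaCatGtcccaaCatGttg
GADD45A: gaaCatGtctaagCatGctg
MDM2: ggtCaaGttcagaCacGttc
FAS: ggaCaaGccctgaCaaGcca
ZMAT3: aaaCaaGtccagaCatGcct

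The CDKN1A match lies at chr6:36676449-36676468 (plus strand of GRCh38), at position −2256 relative to the MANE Select start, with 2 mismatches, and overlaps the first bases of the annotated gene. The GADD45A match lies in intron 3, at chr1:67686775-67686794 (plus strand), 1583 bases after the start and with 1 mismatch. The MDM2 match is in intron 1, at chr12:68808923-68808942 (plus strand), 755 bases after the start and with 2 mismatches. The FAS match is also in intron 1, at chr10:88991309-88991328 (plus strand), 520 bases after the start and with 2 mismatches. ZMAT3 had the one match without a mismatch, in intron 1 at chr3:179070188-179070207 (minus strand), 1612 bases after the start. A match without a mismatch was present at 0.142% of all start sites. A match describes the letters of the reference genome, and occupancy by p53 was not measured. The 5 genes with a match did not share a direction, since the log2 fold changes of MDM2 and ZMAT3 were negative and those of the other 3 positive.

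**Figure D1:**
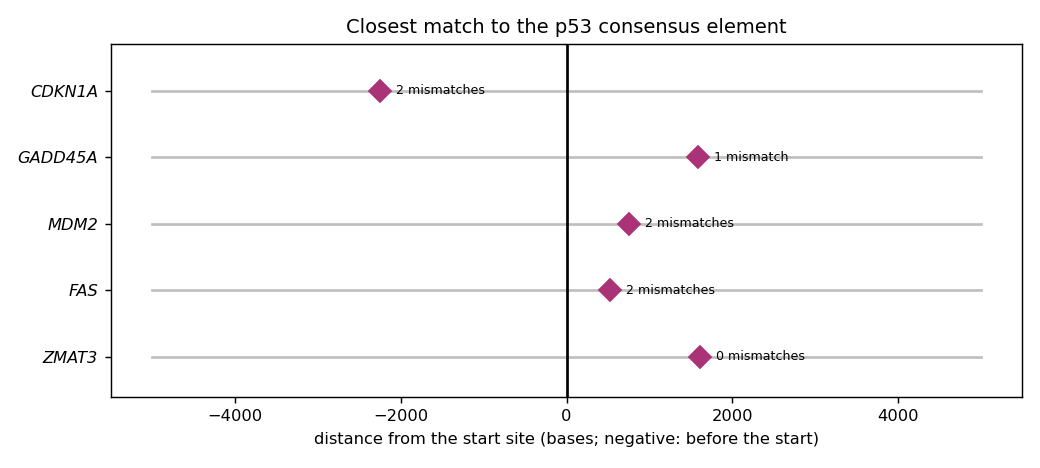
Position of the match with the fewest mismatches to the p53 consensus element in the 5 genes that had one; the horizontal axis is the distance in bases from the start of the MANE Select transcript, and each gray line is the window searched. The CDKN1A match lies at −2256, and the other 4 lie between 520 and 1612 bases after the start.

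Levels of different genes were compared as CPM per kb of the MANE Select transcript. In siCON libraries, CDKN1A had the highest mean level on this scale, at 81.6 CPM per kb, followed by GADD45A at 62.2 and FDXR at 50.9 CPM per kb. TP53I3 had a mean of 26.7, XPC of 11.1 and MDM2 of 9.53 CPM per kb. ZMAT3, SESN1, TIGAR and FAS had means of 4.95, 4.32, 3.11 and 3.04 CPM per kb. Among neighbors in this order, the siCON libraries overlapped for GADD45A and FDXR and for TIGAR and FAS, and the other neighbors did not overlap. In siDGk libraries, CDKN1A (109 CPM per kb) and GADD45A (98.0 CPM per kb) again had the highest means. FDXR and TP53I3 had siDGk means of 36.3 and 36.2 CPM per kb, and their ranges overlapped there.

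The growth arrest genes had the highest levels of the 10 in CPM per kb. CDKN1A (ENSG00000124762.13), on chromosome 6, encodes p21, which blocks cyclin-dependent kinases and is the classic mediator of p53-induced arrest. For CDKN1A, siCON replicates 1 to 3 held 161, 175 and 183 CPM and siDGk replicates 1 to 3 held 223, 228 and 245 CPM. Every siDGk library was above every siCON library. Group means were 173 ± 11.4 CPM for siCON and 232 ± 11.6 CPM for siDGk (SD, n = 3). The log2 fold change of CDKN1A was 0.42 (SE 0.0844, edgeR adjusted p = 0.00125), which passed the adjusted p but was under the fold threshold, and CDKN1A was not called. Without any 1 library, the log2 fold change was between 0.37 and 0.47.

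GADD45A (ENSG00000116717.11), on chromosome 1, encodes a small stress protein that acts in growth arrest and DNA repair. For GADD45A, siCON replicates 1 to 3 held 75.3, 100.0 and 77.1 CPM and siDGk replicates 1 to 3 held 116, 141 and 139.8 CPM. No value was shared between the groups, although siCON replicate 2 stood closer to the siDGk libraries than the other siCON libraries did. GADD45A rose from 84.1 ± 13.8 to 132 ± 14.1 CPM (SD, n = 3), a log2 fold change of 0.65 (SE 0.12, edgeR adjusted p = 0.000606). It was the only called gene of the 10, and it was called in each of the 13 alternative fits, with a log2 fold change between 0.58 and 0.80. No exon of another gene overlapped its exons in Gencode 44.

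The paralogs and partners of the arrest genes were read from the list of 21 paralogs and direct partners of the 10 genes. GADD45B is the paralog of GADD45A that passed the count filter. For GADD45B, siCON replicates 1 to 3 held 30.3, 42.6 and 41.2 CPM and siDGk replicates 1 to 3 held 58.9, 71.9 and 58.3 CPM. All siDGk libraries were above all siCON libraries, and GADD45B was called higher, at a log2 fold change of 0.73 (edgeR adjusted p = 0.00172). Of the 5 paralogs and partners of CDKN1A that were tested, 1 was called higher and 4 were not called. The shares over all genes tested were 7.42% called higher and 6.68% called lower. CCND1, the gene of cyclin D1, rose from 284 ± 23.7 to 493 ± 18.9 CPM (SD, n = 3), a log2 fold change of 0.79 (edgeR adjusted p = 8.34e-07). CCNE1, the gene of cyclin E1, had a log2 fold change of −0.28 and was not called, and the value was −0.025 without siCON replicate 1, −0.13 without siDGk replicate 2 and −0.43 without siDGk replicate 3. CDKN1B, which encodes the related inhibitor p27, had a log2 fold change of 0.27 (edgeR adjusted p = 0.0947). The kinase genes CDK4 and CDK2 had log2 fold changes of 0.23 (edgeR adjusted p = 0.0864) and −0.080, the latter between −0.16 and −0.046 with each library left out. GADD45G and CDKN1C were under the count filter.

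MDM2 encodes the ubiquitin ligase that marks p53 for degradation, so it closes a negative feedback loop. MDM2 (ENSG00000135679.22), on chromosome 12, stood at 72.8, 75.4 and 65.9 CPM in siCON replicates 1, 2 and 3. In siDGk replicates 1, 2 and 3 it stood at 64.1, 63.0 and 64.0 CPM. Every siDGk library was below every siCON library, but the gap between siCON replicate 3 and siDGk replicate 1 was smaller than the spread of the siCON libraries. Its log2 fold change was −0.17 (SE 0.113, 95% interval −0.40 to 0.072, edgeR adjusted p = 0.363), and MDM2 was not called. Exons of other genes cover 14.7% of its exonic bases in Gencode 44. The deposited counts were made with an earlier Gencode release, in which such overlaps were not measured here.

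Neither of the death-signaling targets, FAS and TP53I3, was called. FAS (ENSG00000026103.21), on chromosome 10, encodes a death receptor at the cell surface. For FAS, siCON replicates 1 to 3 held 12.5, 7.94 and 13.3 CPM and siDGk replicates 1 to 3 held 14.5, 15.1 and 13.9 CPM. Each siDGk library was above each siCON library, and siCON replicate 2 was the low library. Its log2 fold change was 0.38 (SE 0.254, edgeR adjusted p = 0.358), and FAS was not called. Without siCON replicate 2 the log2 fold change was 0.17, and over all libraries left out in turn it was at most 0.51. FAS had the lowest counts of the 10 genes, from 139 to 303 per library.

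TP53I3 (ENSG00000115129.13), on chromosome 2, encodes a quinone oxidoreductase linked to oxidative stress in p53-induced apoptosis. For TP53I3, siCON replicates 1 to 3 held 42.0, 41.3 and 49.2 CPM and siDGk replicates 1 to 3 held 51.7, 62.8 and 64.8 CPM. siDGk replicate 1 and siCON replicate 3 were closest to each other, with no overlap of the groups. TP53I3 had a log2 fold change of 0.44 (SE 0.136, edgeR adjusted p = 0.0284), which passed the adjusted p but not the fold threshold. TP53I3 was called without siCON replicate 3 (log2 fold change 0.52) and without siDGk replicate 1 (log2 fold change 0.52). Over all alternatives the adjusted p of edgeR or DESeq2 ran from 0.0145 to 0.115.

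Among the partners of FAS, CASP8, the initiator caspase of death receptors, rose from 35.0 ± 3.41 to 51.8 ± 2.81 CPM (SD, n = 3). Its log2 fold change was 0.56 (edgeR adjusted p = 0.00685). The other 3 partners of FAS, FADD, CASP10 and CFLAR, were not called. For comparison, 7.42% of all genes tested were called higher and 6.68% lower. CASP10 was near 0, and its sign turned positive without siCON replicate 2 (0.11), siDGk replicate 1 (0.10) or siDGk replicate 2 (0.0070).

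**Figure D2:**
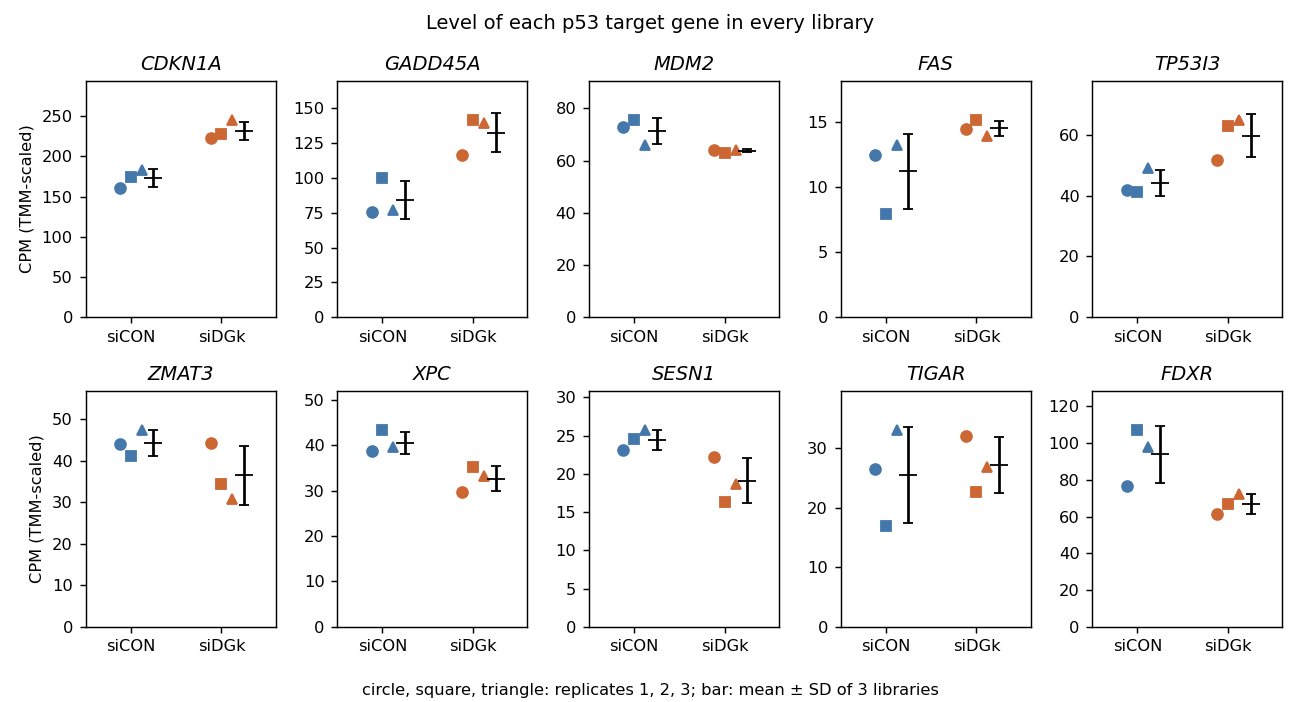
Level of the 10 p53 targets in each library, in CPM after TMM scaling on axes that start at 0; circles, squares and triangles are replicates 1, 2 and 3, and bars are the mean ± SD of 3 libraries. GADD45A lies between 75.3 and 100.0 CPM in siCON libraries and between 116 and 141 CPM in siDGk libraries, whereas the groups overlap for ZMAT3 and TIGAR.

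ZMAT3 and XPC act on nucleic acids. ZMAT3 (ENSG00000172667.10), on chromosome 3, encodes a zinc finger protein that binds RNA and regulates splicing. For ZMAT3, siCON replicates 1 to 3 held 44.1, 41.1 and 47.4 CPM and siDGk replicates 1 to 3 held 44.3, 34.3 and 30.7 CPM. siDGk replicate 1 lay within the siCON range, and the other siDGk libraries lay under it. ZMAT3 had a log2 fold change of −0.28 (SE 0.157, edgeR adjusted p = 0.256) and was not called. It was −0.46 without siDGk replicate 1 and −0.17 without siDGk replicate 3.

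XPC (ENSG00000154767.14), also on chromosome 3, encodes the damage sensor of global nucleotide excision repair. For XPC, siCON replicates 1 to 3 held 38.7, 43.3 and 39.6 CPM and siDGk replicates 1 to 3 held 29.6, 35.1 and 33.2 CPM. The siDGk libraries were all below the siCON libraries. XPC had a log2 fold change of −0.31 (SE 0.148, edgeR adjusted p = 0.162) and was not called. Other exons, mainly those of the antisense gene XPC-AS1, cover 24.6% of its exonic bases in Gencode 44. CETN2, a partner of XPC in damage recognition, fell from 41.5 ± 6.42 to 25.8 ± 1.79 CPM (SD, n = 3), a log2 fold change of −0.69 (edgeR adjusted p = 0.00549). RAD23B, the other partner of XPC in the list, had a log2 fold change of −0.14 and was not called.

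The metabolic targets included the lower values of the 10 genes. SESN1 (ENSG00000080546.13), on chromosome 6, encodes sestrin 1, which restrains mTORC1 signaling under stress. For SESN1, siCON replicates 1 to 3 held 23.1, 24.5 and 25.7 CPM and siDGk replicates 1 to 3 held 22.2, 16.4 and 18.7 CPM. siDGk replicate 1 was close to siCON replicate 1, but no siDGk value reached the siCON range. SESN1 had a log2 fold change of −0.35 (SE 0.190, edgeR adjusted p = 0.225) and was not called.

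The sestrin paralogs had values of the other sign. SESN3 was called higher at a low level, with 3.26 ± 0.713 CPM in siCON and 8.70 ± 3.43 CPM in siDGk libraries (SD, n = 3). Its log2 fold change was 1.42 (edgeR adjusted p = 0.0155), with adjusted p of 0.0731 in the fit without siCON replicate 1 and 0.127 in the fit without siDGk replicate 3. SESN2, which was listed among the other p53 targets, stood at 48.0, 37.1 and 53.8 CPM in siCON replicates 1, 2 and 3. In siDGk replicates 1, 2 and 3 it stood at 57.2, 70.4 and 65.2 CPM. All siDGk values were above the siCON range, and its log2 fold change of 0.48 (edgeR adjusted p = 0.0258) was under the fold threshold. SESN2 was called without siCON replicate 3 (log2 fold change 0.59) or siDGk replicate 1 (log2 fold change 0.54). Differences between the sestrin genes in their fold changes were not tested.

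TIGAR (ENSG00000078237.6), on chromosome 12, encodes a phosphatase that lowers fructose-2,6-bisphosphate and so slows glycolysis. For TIGAR, siCON replicates 1 to 3 held 26.5, 17.0 and 33.1 CPM and siDGk replicates 1 to 3 held 32.0, 22.6 and 26.8 CPM. The groups overlapped, and the siCON libraries had the largest coefficient of variation of the 10 genes, 31.7%. Exons of other genes cover 19.4% of its exonic bases in Gencode 44. TIGAR had a log2 fold change of 0.098 (SE 0.221, edgeR adjusted p = 0.831), which was negative without siCON replicate 2 (−0.13) or siDGk replicate 1 (−0.055). Among the 4 PFKFB genes, whose enzymes act on the same metabolite, none was called by edgeR. Over all genes tested, 7.42% were called higher and 6.68% lower. PFKFB1 had a log2 fold change of 0.90 and PFKFB2 one of −0.36. At an unadjusted p under 0.05, edgeR had 3 of the 4 genes, PFKFB1, PFKFB3 and PFKFB4, all with positive values, where 15.8% of all genes tested were higher at that p. DESeq2 called 0 of the 4. PFKFB3, at a log2 fold change of 0.45, passed the adjusted p and was called in the fits without siCON replicate 2 (log2 fold change 0.52) or siDGk replicate 2 (0.56). Over all alternatives the adjusted p of PFKFB3 from edgeR or DESeq2 ran from 0.0035 to 0.102.

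FDXR (ENSG00000161513.11), on chromosome 17, encodes ferredoxin reductase, which passes electrons to mitochondrial ferredoxins for steroid and iron-sulfur cluster synthesis. For FDXR, siCON replicates 1 to 3 held 76.6, 107 and 97.9 CPM and siDGk replicates 1 to 3 held 61.5, 67.1 and 72.4 CPM. Every siDGk library was below every siCON library, with siCON replicate 1 the lowest of its group. Group means were 93.9 ± 15.6 CPM for siCON and 67.0 ± 5.44 CPM for siDGk (SD, n = 3). Its log2 fold change of −0.49 (SE 0.127, edgeR adjusted p = 0.0102) was just short of the fold threshold, and FDXR was not called. It was called without siCON replicate 1 (log2 fold change −0.61) and without siDGk replicate 3 (log2 fold change −0.55). Over all alternatives the adjusted p of edgeR or DESeq2 ran from 0.000879 to 0.0583. FDX1, which encodes a ferredoxin that accepts these electrons, had a log2 fold change of −0.22 and was not called.

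**Figure D3:**
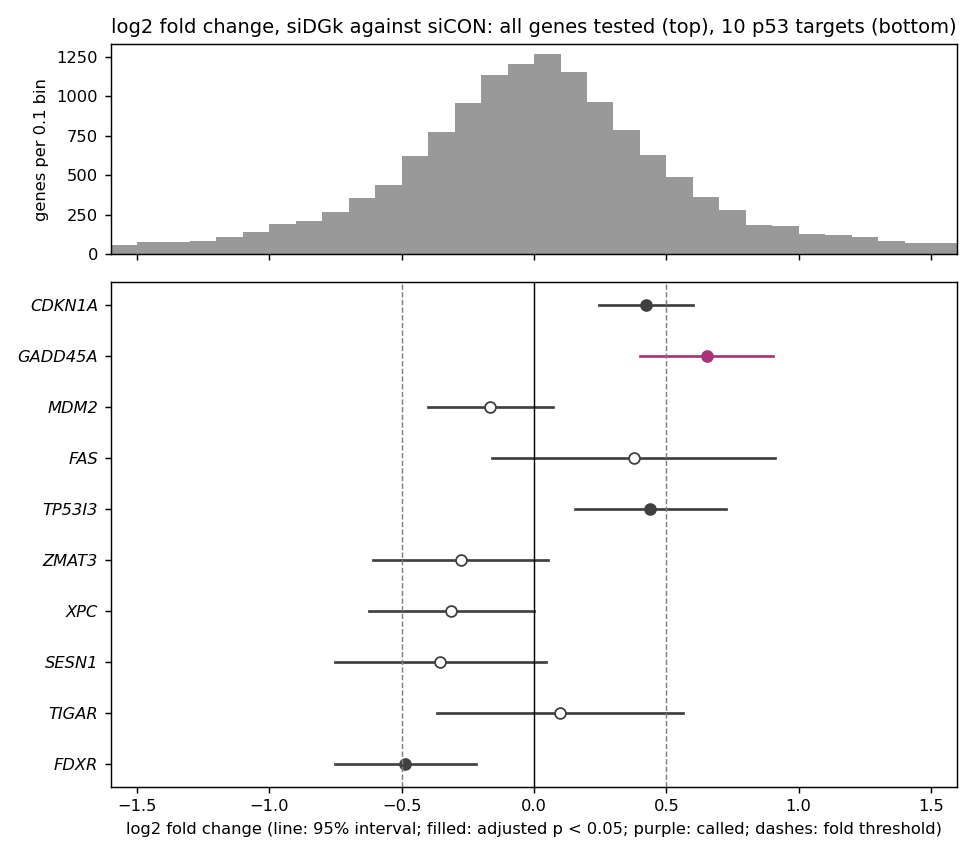
Log2 fold changes, siDGk against siCON: the upper panel counts all 14476 genes tested in bins of 0.1, and the lower panel gives the 10 p53 targets with 95% intervals, dashed lines at the fold threshold of 0.5, filled points for an adjusted p under 0.05 and purple for the called gene. The values run from −0.49 for FDXR to 0.65 for GADD45A, on both sides of 0.

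Other genes widely described as p53 targets were read from a list of 52 names, of which 50 were tested. RPRM was not found by name, and TP53AIP1 was under the count filter. Of the 50 genes, edgeR called 4 higher in siDGk cells and 6 lower, and 40 were not called. Over all genes tested, 7.42% were called higher and 6.68% lower. Without siCON replicate 1, 3 genes were called lower, STEAP3, CES2 and FUCA1. Over these 50 genes the log2 fold changes had a median of −0.031, beside 0.017 for all genes tested, with 23 positive and 27 negative values. Every siDGk library lay above every siCON library for 11 genes, and below for 12, compared with 18.7% and 17.3% of all genes tested.

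PMAIP1, which encodes the BH3-only protein NOXA, had the largest called rise of this list. For PMAIP1, siCON replicates 1 to 3 held 5.23, 6.02 and 9.82 CPM and siDGk replicates 1 to 3 held 27.7, 26.3 and 48.7 CPM. siDGk replicate 3 was the highest library, and each siDGk library exceeded the siCON range. PMAIP1 had a log2 fold change of 2.31 (SE 0.278, edgeR adjusted p = 7.26e-06). BAX, which encodes a pore-forming effector of apoptosis, had a log2 fold change of −0.13, and BBC3, which encodes the BH3-only protein PUMA, one of −0.073. Neither was called. Of the 11 apoptosis genes tested, PMAIP1 alone was called, beside 7.42% of all genes tested called higher and 6.68% called lower. Their median log2 fold change was −0.015, beside 0.017 for all genes. TNFRSF10A, which encodes a death receptor for the ligand TRAIL, is named here after its values were seen. For TNFRSF10A, siCON replicates 1 to 3 held 16.9, 12.5 and 12.1 CPM and siDGk replicates 1 to 3 held 19.9, 23.8 and 19.9 CPM. All siDGk libraries were above all siCON libraries, and its log2 fold change was 0.61 (SE 0.215, edgeR adjusted p = 0.0539). It was not called with all libraries but was called without siCON replicate 1 (log2 fold change 0.78, edgeR adjusted p = 0.0326). Over all alternatives its adjusted p from edgeR or DESeq2 ran from 0.0326 to 0.178.

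In the group of cell cycle and growth genes, 3 of 11 were called higher, beside 7.42% of all genes tested. SFN, which encodes 14-3-3 sigma, rose from 13.8 ± 1.80 to 33.3 ± 1.37 CPM (SD, n = 3; log2 fold change 1.27, edgeR adjusted p = 5.68e-05). PLK3, a stress-responsive polo-like kinase gene, rose from 11.4 ± 0.496 to 26.5 ± 9.58 CPM (SD, n = 3; log2 fold change 1.22, edgeR adjusted p = 0.00119). SERTAD1, a gene for a cofactor of E2F transcription factors, had a log2 fold change of 1.01 (edgeR adjusted p = 0.00611). BTG2, an antiproliferative gene, had a log2 fold change of −0.55 with an edgeR adjusted p of 0.0512 and was not called. BTG2 was called without siCON replicate 2 (log2 fold change −0.64), with RLE normalization and with library sizes summed over the tested genes. CCNG1, the gene of cyclin G1, had a log2 fold change of −0.065 and was not called.

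GDF15, which encodes a secreted stress cytokine, stood at 762, 953 and 871 CPM in siCON replicates 1, 2 and 3. In siDGk replicates 1, 2 and 3 it stood at 1147, 1158 and 1179 CPM. The siDGk libraries were all above the siCON libraries. GDF15 had a log2 fold change of 0.43 (SE 0.0784, edgeR adjusted p = 0.000582), under the fold threshold. Without siCON replicate 2 it was 0.51, and GDF15 was called.

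In the group of metabolic and lysosomal targets, 5 of 10 genes were called lower, beside 6.68% of all genes tested, with a median log2 fold change of −0.57. FUCA1, a lysosomal fucosidase gene, fell from 46.5 ± 5.18 to 26.1 ± 2.66 CPM (SD, n = 3; log2 fold change −0.83, edgeR adjusted p = 0.000755). STEAP3, a ferrireductase gene, fell from 56.3 ± 4.22 to 33.2 ± 3.95 CPM (SD, n = 3; log2 fold change −0.76, edgeR adjusted p = 0.000686). CES2, a carboxylesterase gene, had a log2 fold change of −0.57 (edgeR adjusted p = 0.000887). PANK1, which encodes a pantothenate kinase of coenzyme A synthesis, had a log2 fold change of −0.88, and its edgeR adjusted p was 0.0111 with all libraries and 0.0594 without siCON replicate 1. CMBL, a hydrolase gene, had a log2 fold change of −0.57 (edgeR adjusted p = 0.0386), and with any 1 library other than siCON replicate 2 left out that p was between 0.0521 and 0.146. With the shrunken fold changes of DESeq2, CMBL was at −0.50 and not called. GLS2, the glutaminase gene of liver, had a log2 fold change of −0.85 and was not called (edgeR adjusted p = 0.0906). Over the same libraries the summed hepatocyte markers were also lower in siDGk cells, as given above, and their part in these values was not tested.

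Of the remaining targets, SPATA18, which encodes a protein of mitochondrial quality control, was called lower at a log2 fold change of −1.12 (edgeR adjusted p = 0.0314). With any 1 library other than siDGk replicate 3 left out, the edgeR adjusted p was between 0.0522 and 0.135. CD82, a tetraspanin gene, had a log2 fold change of 3.11 on very low levels, at most 0.572 CPM in siCON libraries and 5.05 CPM in siDGk replicate 2. It was not called by edgeR (adjusted p = 0.114), although DESeq2 called it, with a shrunken log2 fold change of 0.51. KITLG and CYFIP2, also named after their values were seen, were each called in 1 fit with a library left out. KITLG, the gene of stem cell factor, had a log2 fold change of 0.64 (edgeR adjusted p = 0.0913) and was at 0.99 without siCON replicate 3 (edgeR adjusted p = 0.0163). CYFIP2, a gene for an actin regulator, had a log2 fold change of −0.45 (edgeR adjusted p = 0.0227) and was at −0.58 without siDGk replicate 1. Of the 6 genes of DNA repair and nucleotide supply, 0 were called by edgeR or DESeq2 and 1, RPS27L, had an unadjusted edgeR p under 0.05, with a positive fold change. Of all genes tested, 7.42% were called higher, 6.68% were called lower and 15.8% were higher at that unadjusted p. DDB2 had a log2 fold change of −0.24, which ran from −0.30 to −0.16 with each library left out. RRM2B had a log2 fold change of −0.18, which was −0.0039 without siCON replicate 1 and −0.37 without siDGk replicate 1. RRM2B encodes the p53-inducible subunit of ribonucleotide reductase, which supplies deoxynucleotides in resting cells.

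**Figure D4:**
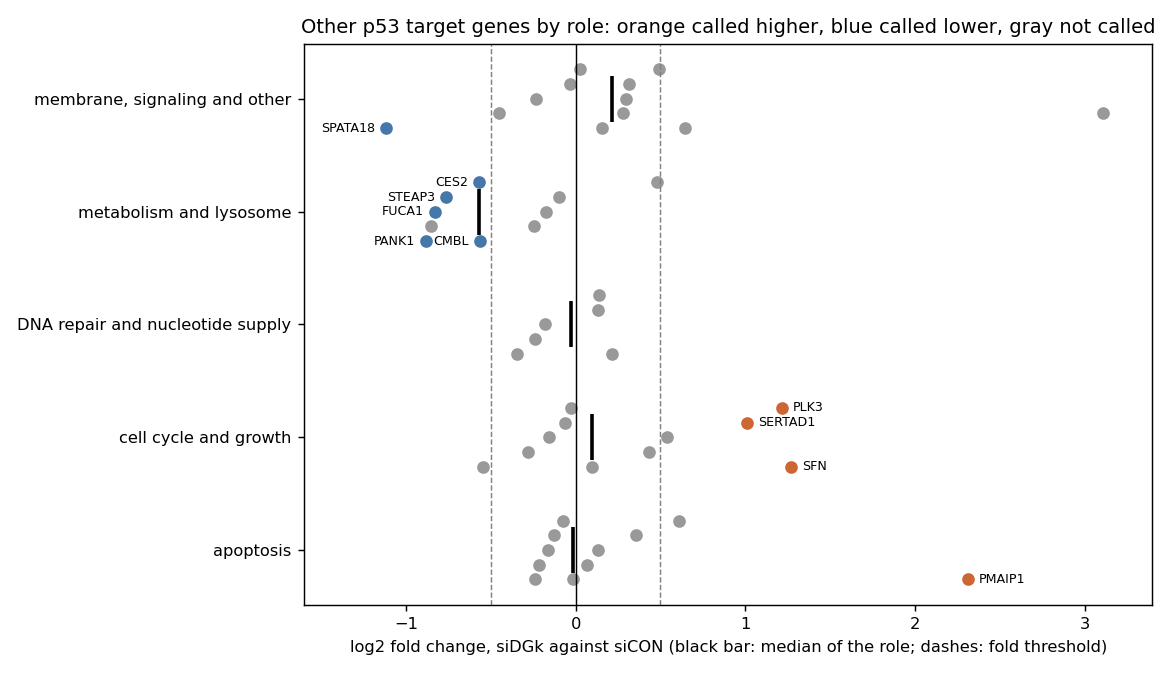
Log2 fold change, siDGk against siCON, of the 50 other p53 targets tested, grouped by role; each point is 1 gene, black bars are the median of a role, and dashed lines mark the fold threshold. The called genes of the metabolic and lysosomal group all lie at negative values, with a group median of −0.57, and PMAIP1 lies at 2.31.

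The regulators of p53 were read from a list of 22 genes, of which 21 were tested and TP63 had no count. MDM4, which encodes the MDM2-related inhibitor of p53, had a log2 fold change of 0.17 that was −0.13 without siDGk replicate 3.

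Of the 21 regulators tested, 1 was called higher and 2 were called lower, beside 7.42% and 6.68% of all genes tested. CDKN2A, whose ARF product inhibits MDM2, stood at 30.8, 59.5 and 43.5 CPM in siCON replicates 1, 2 and 3, and at 94.5, 88.3 and 102 CPM in siDGk replicates 1, 2 and 3. All siDGk libraries were higher than the siCON libraries, and the log2 fold change was 1.09 (SE 0.172, edgeR adjusted p = 0.000135). Its counts also include transcripts of the kinase inhibitor p16 from the same gene. USP7, which encodes a deubiquitinase of MDM2 and p53, stood at 186, 166 and 174 CPM in siCON replicates 1, 2 and 3, and at 123, 111 and 93.6 CPM in siDGk replicates 1, 2 and 3. All siDGk libraries were lower than the siCON libraries, with a log2 fold change of −0.68 (SE 0.103, edgeR adjusted p = 8.87e-05). TRIM24, a ubiquitin ligase gene for p53, had a log2 fold change of −0.53 (edgeR adjusted p = 0.000366), and it was under the fold threshold without siCON replicate 1 or siDGk replicate 2, at −0.46 in both. TP73, of the p53 family, had a log2 fold change of −1.20 at levels of at most 3.46 CPM and was not called. The coactivator gene CREBBP and the deacetylase gene SIRT1 had log2 fold changes of 0.36 and 0.26 and were not called.

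Over the 21 paralogs and partners, 18 were tested, 4 were called higher and 1 lower, beside 7.42% and 6.68% of all genes tested. Their median log2 fold change was 0.22, beside 0.017 for all genes. The called genes are GADD45B, CCND1, SESN3 and CASP8, which were higher, and CETN2, which was lower. FDX2 was under the count filter.

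Genes with the pattern most like that of CDKN1A were found by Pearson correlation of log2 CPM over the 6 libraries, among 9225 genes whose mean reached 10 CPM. Among the 5 with the highest r were HNRNPC, PTMA, SLC25A32 and UTP4, with r from 0.9956 to 0.9977. For MDM2 the 5 genes were TMEM150A, ATP5J, MOCS2, PUDP and GATA6, with r from 0.9691 to 0.9872. The 6 points hold both groups, so a difference between groups alone gives a high r, and these values are a description.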

How the data were processed

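The authors deposited whole-number read counts per gene, neither normalized nor pooled, for 3 siCON and 3 siDGk libraries. They filtered out tRNA, rRNA, adapter and spike-in reads, aligned read pairs to GRCh38 and a Gencode release earlier than 44 with STAR 2.6.1 (version from the submitters' processing notes), dropped low-complexity reads and counted with featureCounts 1.6.5. Default counting ignores strand and leaves out reads with several alignments or overlapping genes, so genes with antisense, overlapping or near-identical partners are uncertain. Titles and library names gave the groups, because the treatment label names the control siRNA for every sample.

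In R 4.3.3, genes passing filterByExpr of edgeR 4.0.16 (minimum count 10) were TMM-normalized. The groups were tested by robust quasi-likelihood, with Benjamini-Hochberg adjustment over all genes. SE is the absolute fold change (log2) over the root of F. Library sizes were the totals over all genes. A first fit summed them over the genes that passed the filter and gave 1033 higher and 999 lower calls in place of 1074 and 967. It was replaced, after its calls had been seen, to follow an earlier description of the same data, and is kept among the alternatives. The change moved BTG2 from called to not called.

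Named genes are the 10 targets, DGUOK, every called gene and the 3 largest and 3 smallest fold changes of each list, 11 well-known p53 genes, paralogs, and the genes most like CDKN1A and MDM2. Of these, 2 genes are not reported here. The targets, lists and rules were chosen with earlier results of these data known. The lists came from general knowledge. Alternatives were DESeq2 1.42.0 with and without shrinkage, RLE and upper-quartile normalization, no count filter, a replicate block, no fold threshold and each library left out. Both tools were tested on simulated counts. The simulated counts varied less between replicates than these libraries and held larger changes than most given here. Accuracy on these data was thus not measured. Chi-square per degree of freedom between replicates was 10.7 to 25.7, beyond counting noise. Transcripts and positions are from Gencode 44 on GRCh38.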

Additional observations from a re-analysis of the deposited data

How the results depend on the processing

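Of the 10 p53 targets, the 1 called higher became 3 with no fold change threshold, and between 1 and 2 when each library was left out. The 0 called lower became 1 with no fold change threshold, and between 0 and 1 with libraries left out. The other alternatives kept both counts. The median log2 fold change was −0.034 with all libraries and ran from −0.13 to 0.052 with libraries left out, so that its sign turned. Of the other p53 targets, the 4 called higher became 8 with no fold change threshold, and between 4 and 6 with libraries left out. The 6 called lower became between 3 (without siCON replicate 1) and 6 with libraries left out. Calls over all genes ran from 1704 to 1935 with libraries left out. Calls among regulators ran from 2 to 3, and among paralogs and partners from 4 to 6.

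With replicate number as a block, 2077 genes were called, 1964 of them among the 2041 called without it, and no call of a p53 target changed. The correlation of same-numbered libraries after removing group means was 0.024, 0.0166 and −0.00224, so the values showed no pairing by number. Whether same-numbered libraries were made together is not known. The library sizes of the first fit, which the reported ones replaced after seeing the data, led to 2032 calls, and 2000 of these were shared with the reported fit.

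With libraries left out, the log2 fold change of TIGAR ran from −0.13 to 0.32, that of BBC3 from −0.15 to 0.019, that of MDM4 from −0.13 to 0.35 and that of CASP10 from −0.18 to 0.11. None of these 4 was called in any fit. Other uncalled log2 fold changes also moved with libraries left out, among them those of BAX (−0.18 to −0.028), CCNG1 (−0.10 to −0.015), RAD23B (−0.22 to −0.0094), FDX1 (−0.42 to −0.065), PFKFB2 (−0.46 to −0.18), SIRT1 (0.062 to 0.40) and TP73 (−2.20 to −0.47). Without siDGk replicate 2, CD82 was at 2.07. Shrinkage by DESeq2 moved the called values of SESN3 to 0.84, SPATA18 to −0.73 and COL1A1 to 2.51. It also moved the uncalled values of PFKFB1 from 0.90 to 0.53 and of TP73 from −1.20 to −0.23. The median of all genes moved from 0.017 to 0.13 with DESeq2's maximum likelihood fold changes and to 0.14 with no count filter, and was 0.020 with DESeq2's shrunken fold changes. Why these values moved was not tested. FAS, with the lowest counts of the 10 targets (139 to 303 per library), had a 95% interval of its log2 fold change from −0.16 to 0.91.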
